A study of Mus musculus with 3 samples.

Results

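The 10 genes described here encode scavenger receptors or, in the case of *Cd5l*, a secreted protein. They are *Cd163*, *Cd36*, *Msr1*, *Marco*, *Scarb1*, *Scarb2*, *Lyve1*, *Olr1*, *Cd5l* and *Colec12*. They were taken by gene symbol from the 31053 mouse genes of the count tables, and each symbol was found. On the GRCm38 assembly the receptors with the clearest differences lie at chr6:124304656-124330527 on the plus strand (*Cd163*) and, on the minus strand, at chr5:17781690-17888801 (*Cd36*), chr5:92441314-92506833 (*Scarb2*), chr7:110850607-110863239 (*Lyve1*) and chr6:129485244-129507165 (*Olr1*). Scavenger receptors are mostly surface proteins and fall into classes that are structurally unrelated to each other. They are grouped by a shared habit of binding modified lipoproteins, dying cells, haemoglobin complexes, glycosaminoglycans and microbial surfaces and carrying them into the cell. On tissue macrophages they differ with the type of macrophage: CD163 and LYVE1 are known from resident perivascular and connective tissue macrophages, and CD36 and MSR1 from lipid-laden foam cells. CD36 and SR-BI, the product of *Scarb1*, also handle fatty acids and lipoproteins in endothelium and other non-immune cells.

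The data were droplet single-cell RNA-seq (10x Chromium 3' v3) of 3 mouse libraries, 1 per condition. For Co-Mac, marrow cells of C57/BL6 mice spent 7 days in GM-CSF with no further agent. VD-Mac was the same kind of culture given 1 µM 1,25-dihydroxycholecalciferol (VD3, the active form of vitamin D) for 24 h. The library called hSTSG held cells from human split-thickness skin grafts that had lain for 14 days under the skin of C57BL6/J mice, which were wild-type and pooled from 5 animals, and the tables count mouse genes, so RNA of the human graft itself is not measured here. The graft cells were released with collagenase and the cultured cells were not, so tissue, origin and dissociation cannot be told apart in any graft-against-culture value. Because each condition was 1 library, no test between conditions was possible; each difference below compares libraries. Levels are given as CPM: a gene's unique molecular identifiers (UMIs), summed over the cells of a type, relative to the gene UMIs of those cells. Their 95% Poisson intervals, and the exact binomial intervals of ratios and shares, cover counting error only. A gene was called higher or lower when its levels were 2-fold apart or more and the larger of them was 10 CPM or above.

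After removing barcodes with fewer than 300 genes, 100000 or more UMIs, or 10% or more mitochondrial UMIs, 7257 Co-Mac, 8825 VD-Mac and 2144 hSTSG cells remained, with median depths of 15804, 12089 and 6637.5 UMIs. The libraries shared from 3 to 15 cell barcodes pairwise. Cells were gated by marker lists that held none of the 10 genes. Of the Co-Mac and VD-Mac cells, 20.3% and 17.0% passed the macrophage gate, whereas 40.3% and 42.2% passed that for mature dendritic cells, so the cultures labelled as macrophages were mixed. *Cyp24a1*, the vitamin D-degrading enzyme that VD3 induces, had 0.0245 CPM in macrophage-like cells of Co-Mac and 606 CPM in those of VD-Mac. The macrophage-like cells numbered 1476 in Co-Mac, 1501 in VD-Mac and 777 in hSTSG, with median depths of 22669, 16388 and 11430 UMIs. Their 8 gate markers, none of them at zero, summed to 2254, 3799 and 9243 CPM, so cells passed the gate at different marker levels in the 3 libraries. Markers of neutrophils, 7 genes, summed to 566, 619 and 276 CPM in the same cells, and their part in the values below was not tested.

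In macrophage-like cells, *Cd36*, *Msr1*, *Scarb1*, *Scarb2* and *Olr1* reached 10 CPM in both cultures and the graft, whereas *Cd163* and *Lyve1* did so in the graft alone. *Marco*, *Cd5l* and *Colec12* stayed below 10 CPM in the macrophage-like cells of each library. The plot of levels by cell type sets the 3 libraries side by side.

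**Figure D1:**
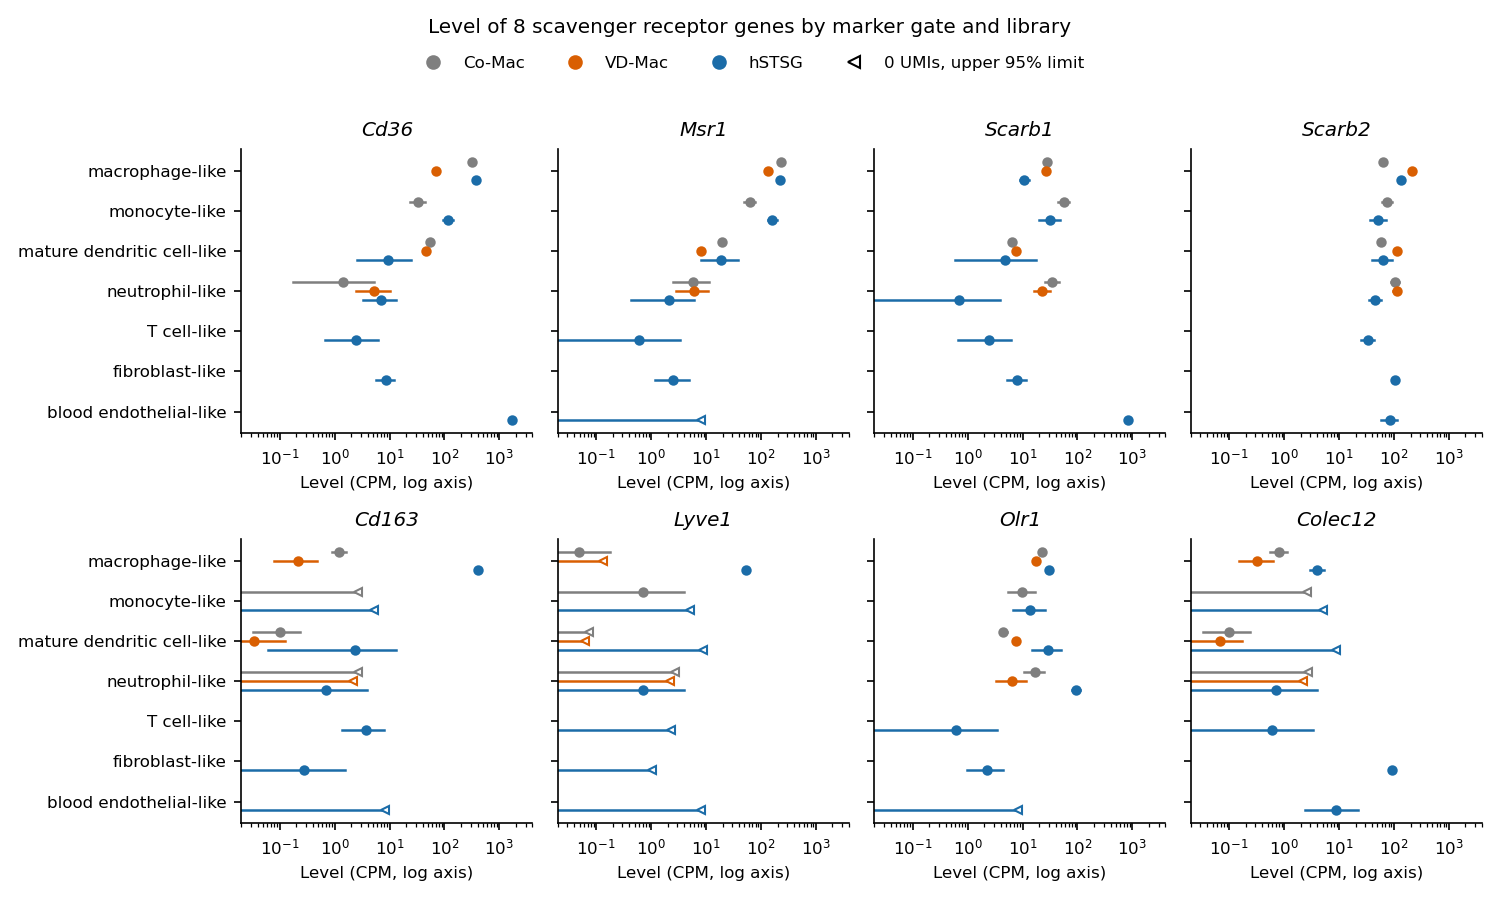
CPM of 8 of the 10 genes (*Marco* and *Cd5l* are not drawn) on a log scale by marker-gated cell type and library, with 95% Poisson intervals for counting error; open triangles mark the upper limit where no UMI was found. In macrophage-like cells *Cd163* stood at 413 CPM in hSTSG against 1.23 in Co-Mac, and *Cd36* at 69.4 CPM in VD-Mac against 313 in Co-Mac.

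VD3-treated and untreated macrophage-like cells differed in *Cd36* and *Scarb2*, in opposite directions. *Cd36*, the class B receptor for oxidised lipoprotein and long-chain fatty acids, was at 313 CPM (95% interval 307–318) in Co-Mac, 69.4 CPM (66.4–72.6) in VD-Mac and 378 CPM (367–389) in hSTSG. It was thus 4.50-fold lower with VD3, a log2 ratio of -2.17 (-2.24 to -2.10), and the VD-Mac level lay below both of the others. Over the alternatives the log2 ratio kept its direction but ran from -3.68, in cells with less than 5% mitochondrial UMIs, to -1.37, over all gated cells weighted to the gate shares of Co-Mac. *Scarb2* encodes LIMP-2, a lysosomal membrane protein related to CD36 that carries glucocerebrosidase to the lysosome. It was at 63.0 CPM (60.6–65.5) in Co-Mac, 212 CPM (207–218) in VD-Mac and 133 CPM (126–139) in hSTSG. *Scarb2* was 3.37-fold higher with VD3, a log2 ratio of 1.75 (1.69 to 1.82), and the graft level lay between the cultures. These were the 2 calls among the 5 members at 10 CPM or more, 1 higher and 1 lower. Among all 7794 genes at that level in macrophage-like cells, 3.46% were called higher in VD-Mac and 5.14% lower.

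*Msr1*, the class A receptor for acetylated lipoprotein, was at 236 CPM (231–240) in Co-Mac, 132 CPM (127–136) in VD-Mac and 220 CPM (211–229) in hSTSG. Its log2 ratio with VD3 was -0.84 (-0.90 to -0.79), which did not reach 2-fold; over all kept cells of each culture it was -1.27, past that fold. *Scarb1*, the HDL receptor, gave 28.1 CPM (26.5–29.8) in Co-Mac and 26.7 CPM (24.8–28.7) in VD-Mac, and the log2 ratio of -0.07 had an interval of -0.21 to 0.06. *Olr1*, which encodes the oxidised-LDL receptor LOX-1, was at 22.2 CPM (20.8–23.7) in Co-Mac and 17.5 CPM (16.0–19.1) in VD-Mac. Of these 3 genes, *Scarb1* had an interval spanning zero. *Marco*, a class A receptor for bacteria and particles, was at 5.34 CPM in Co-Mac and 0.793 in VD-Mac, below the level needed for a call. Its 218 UMIs in Co-Mac came from 41 of 1476 macrophage-like cells, and 2 cells held 50% of them, so the *Marco* value rested on very few cells; in macrophage-like cells without a cycling-marker UMI its log2 ratio turned from -2.75 to 0.68. Each of the remaining members, *Cd163*, *Lyve1*, *Cd5l* and *Colec12*, was at or below 1.23 CPM in both cultures.

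Promoter sequence was read because the vitamin D receptor is a nuclear receptor that binds paired hexamers. It is shown for *Cd36* and *Scarb2*, the members called with VD3, and for *Marco*, which was not called. The sequences are the 250 bases before the RefSeq start (GRCm38.p6), written 5′ to 3′ on the gene's strand, with motif matches in capitals. They lie on the minus strand at chr5:17835897-17836146 for *Cd36*, chr5:92505658-92505907 for *Scarb2* and chr1:120505025-120505274 for *Marco*.
Cd36: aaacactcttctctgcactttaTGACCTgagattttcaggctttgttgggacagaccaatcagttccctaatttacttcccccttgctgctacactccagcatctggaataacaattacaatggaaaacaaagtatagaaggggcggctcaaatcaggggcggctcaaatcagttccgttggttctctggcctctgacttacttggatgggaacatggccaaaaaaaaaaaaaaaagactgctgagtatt
Scarb2: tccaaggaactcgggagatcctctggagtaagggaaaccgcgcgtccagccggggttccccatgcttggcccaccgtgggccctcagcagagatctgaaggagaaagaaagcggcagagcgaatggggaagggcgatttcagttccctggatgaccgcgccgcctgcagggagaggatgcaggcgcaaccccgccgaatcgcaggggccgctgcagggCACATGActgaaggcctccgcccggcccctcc
Marco: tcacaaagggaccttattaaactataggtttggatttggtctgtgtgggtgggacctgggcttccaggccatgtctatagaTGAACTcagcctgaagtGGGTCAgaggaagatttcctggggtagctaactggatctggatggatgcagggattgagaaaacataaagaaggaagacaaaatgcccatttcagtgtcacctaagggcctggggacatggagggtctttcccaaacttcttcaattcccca
Both strands were searched for the receptor hexamer AGGTCA, for its variant GGGTCA, for the variant AGTTCA, for the E-box CACGTG and for the M-box TCATGTG, the last of these chosen after the sequences were seen. *Cd36* held AGGTCA, read on the opposite strand, 228 bases before the start; 14% of the 32851 RefSeq promoters of this length held that hexamer. *Marco* held GGGTCA at 152 bases and AGTTCA, on the opposite strand, at 169 bases before the start, hexamers present in 11.6% and 11.8% of promoters. *Scarb2* held none of the hexamers but TCATGTG, on the opposite strand, at 32 bases, a motif found in 3.25% of promoters. CACGTG, found in 6.02% of promoters, was in none of the 6 members' promoters that could be read. Among the others, *Olr1* held AGGTCA at 175 bases, *Cd5l* held AGTTCA on the opposite strand at 51 bases, and *Cd163* held none of the motifs; no promoter was read for *Msr1*, *Scarb1*, *Lyve1* or *Colec12*. Such matches describe the letters and are not evidence of binding. Each hexamer was searched alone, so the spacing and orientation of pairs, including those of *Marco*, were not examined. The *Cd36* and *Scarb2* starts lie inside the longer GENCODE spans of those genes, and the *Scarb2* window falls in an exon of a non-coding retained-intron transcript.

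The mature dendritic cell-like cells, 2923 in Co-Mac and 3726 in VD-Mac, gave *Scarb2* at 57.1 CPM (55.1–59.3) and 115 CPM (112–118). Its log2 ratio was 1.01 (0.94 to 1.07), called higher with an interval that spans the 2-fold threshold. *Cd36* was at 53.6 CPM (51.6–55.7) and 46.7 CPM (45.0–48.5) there, a log2 ratio of -0.20 (-0.28 to -0.12) against -2.17 in the macrophage-like cells. *Msr1* was at 19.6 CPM in Co-Mac and 7.94 in VD-Mac, a log2 ratio of -1.30, and was called lower. Of the members, 1 was called higher and 1 lower, against 2.17% and 2.9% of the 6905 genes at that level. By summed CPM, *Cd36* was therefore near its untreated level in one gated type and well below it in the other. Its spread over the mature dendritic cell-like cells differed, with a UMI in 23.4% of Co-Mac and 33.6% of VD-Mac cells at full depth. There, 83 Co-Mac cells and 248 VD-Mac cells held 50% of its UMIs. The difference between the types was not tested. In neutrophil-like cells, 296 in Co-Mac and 385 in VD-Mac, *Scarb2* was at 104 CPM (87.9–123) and 112 CPM (96.4–129), intervals that overlap. *Olr1* was at 16.7 CPM (10.6–25.0) and 6.50 CPM (3.25–11.6) in those cells, from 23 and 11 UMIs, and these intervals also overlap. It was called lower, at a log2 ratio of -1.36 (-2.54 to -0.26). There the background was 3.34% of 7703 genes called higher and 4.14% lower.

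**Figure D2:**
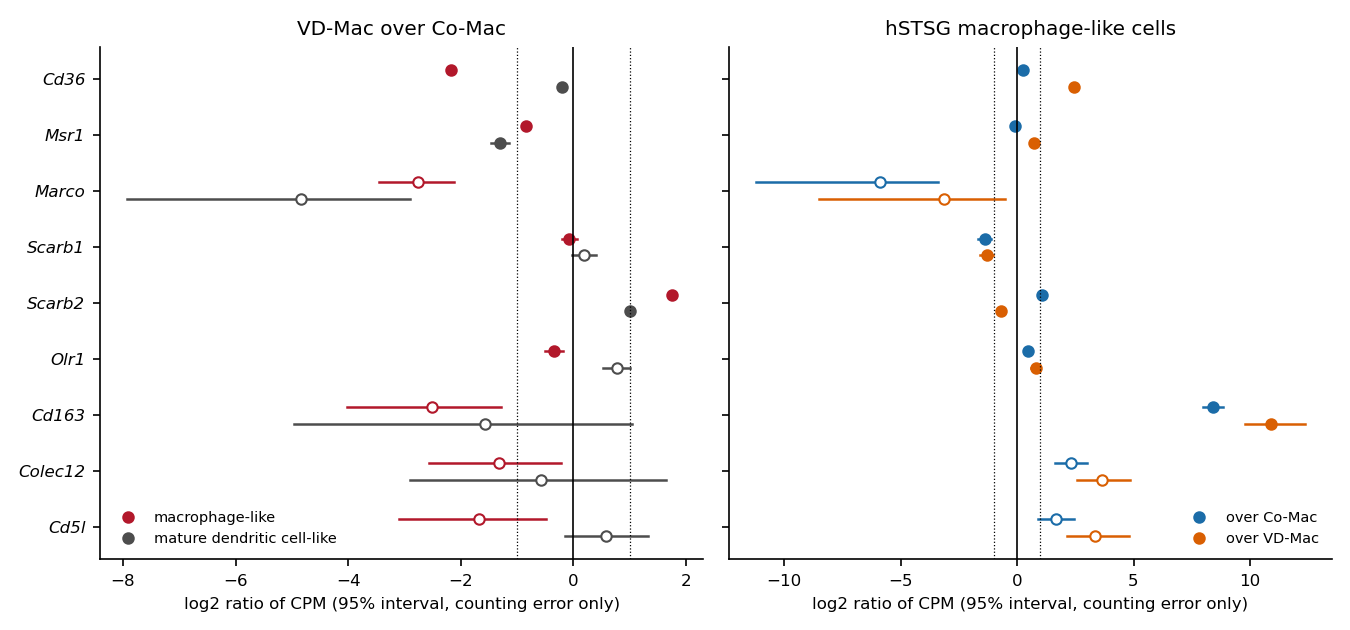
Log2 ratios of CPM with 95% intervals (counting error only) for VD-Mac over Co-Mac in macrophage-like and mature dendritic cell-like cells (left) and for hSTSG macrophage-like cells over each culture (right). Open symbols are below 10 CPM in both libraries, dotted lines mark 2-fold, and *Lyve1* is left out because it had no UMI in VD-Mac; *Cd36* sits at -2.17 and *Scarb2* at 1.75 on the left, and *Cd163* at 8.40 over Co-Mac on the right.

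Shares of cells with a UMI were compared after thinning each cell to 2000 UMIs, since the libraries differed in depth, which left out 6 Co-Mac, 77 VD-Mac and 54 hSTSG macrophage-like cells of lower depth. *Cd36* was detected in 31.3% of Co-Mac, 6.60% of VD-Mac and 23.1% of hSTSG macrophage-like cells, against 68.6%, 27.9% and 40.4% before thinning. Among graft T cell-like cells, which should lack it, the thinned share was 0.826%. *Scarb2* went the other way between the cultures, with 12.0% of Co-Mac, 33.6% of VD-Mac and 20.9% of hSTSG cells, and 4.55% of the T cell-like cells. Before thinning the *Scarb2* shares were 75.0%, 82.4% and 62.0%, so the graft stood below Co-Mac by the unthinned share and above it by the thinned share and the CPM. *Msr1* was found in 35.4%, 19.1% and 28.5% of the macrophage-like cells, and before thinning in 86.5%, 57.5% and 65.4% of them and 0.412% of the T cell-like cells. The remaining *Cd36* in VD-Mac was unevenly spread: 45 macrophage-like cells (3.00%) held 50% of its UMIs, compared with 162 cells (11.0%) in Co-Mac. In hSTSG, 32 cells (4.12%) did so.

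**Figure D3:**
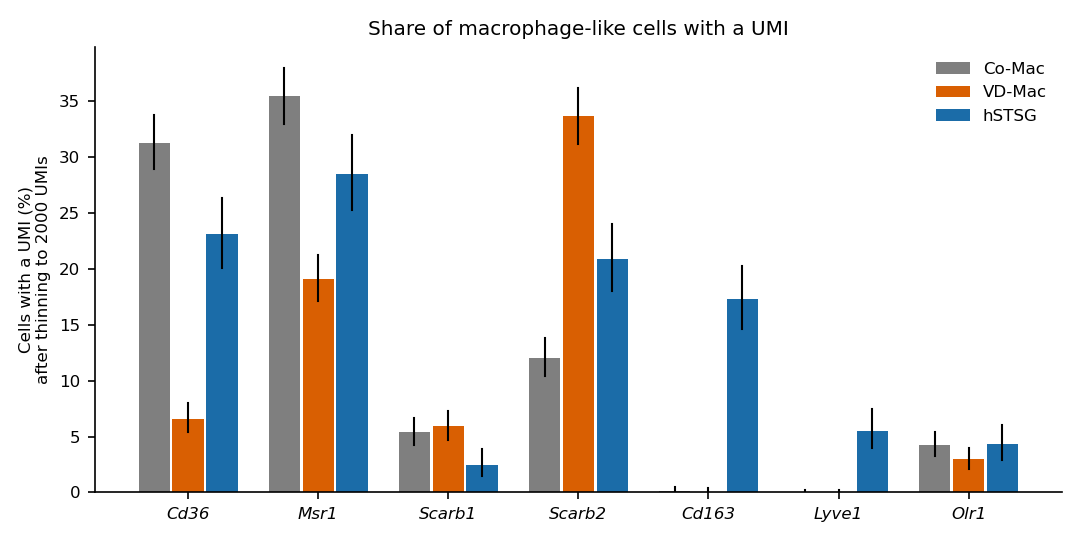
Percentage of macrophage-like cells with at least 1 UMI of each gene after thinning to 2000 UMIs per cell, with 95% Clopper-Pearson intervals (counting error only). *Cd36* is at 31.3% in Co-Mac and 6.60% in VD-Mac, *Scarb2* at 12.0% and 33.6%, and *Cd163* and *Lyve1* are seen in hSTSG at 17.3% and 5.53%.

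Graft macrophage-like cells stood apart from the untreated culture by *Cd163* and *Lyve1*. *Cd163*, the receptor that clears haptoglobin-haemoglobin complexes, was at 1.23 CPM in Co-Mac, 0.216 in VD-Mac and 413 in hSTSG, 337-fold over Co-Mac with a log2 ratio of 8.40 (7.99 to 8.83). *Lyve1*, a hyaluronan receptor of lymphatic endothelium and some resident macrophages, had 2 UMIs in Co-Mac, none in VD-Mac and 53.7 CPM in hSTSG. Its log2 ratio over Co-Mac was 10.10 with a counting interval of 8.24 to 13.15. The level was at least 497-fold higher than in VD-Mac, set against 3 counts in that library's macrophage-like cells. Both genes were unevenly spread in hSTSG: 22 macrophage-like cells (2.83%) held 50% of the *Cd163* UMIs and 12 (1.54%) held 50% of those of *Lyve1*. *Scarb2* was also called higher than in Co-Mac, at a log2 ratio of 1.07, and its level was below that of VD-Mac by a log2 ratio of -0.68. *Scarb1* was called lower, at 10.8 CPM against 28.1, a log2 ratio of -1.38, a call lost at -0.86 when cells were gated by the number of markers detected. The counts of 3 higher and 1 lower among 7 members stand against a background of 18.3% of 8231 genes higher and 19.9% lower; this comparison and that with VD3 share the Co-Mac library. The *Scarb2* call was lost under 4 other ways of gating, averaging or thinning the cells, with a lowest log2 ratio of 0.82 among them, and in Trem2-type cells alone, a subset described below, at 0.61. In that comparison *Cd163* and *Lyve1* had log2 ratios of 1.98 and 2.98 and were below 10 CPM, and *Cd36* and *Olr1* were called higher at 1.17 and 1.14.

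*Cd36* and *Msr1* in graft macrophage-like cells were near the untreated culture, with log2 ratios of 0.27 and -0.10. *Cd36* was nevertheless called higher in the graft than in VD-Mac, at a log2 ratio of 2.44. *Olr1* was at 30.5 CPM (27.4–33.9) against 22.2 CPM in Co-Mac, a log2 ratio of 0.46. A single *Marco* UMI was found in the graft macrophage-like cells, 0.0895 CPM, while *Cd5l*, a secreted survival factor of macrophages, was at 2.60 CPM.

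Within the graft, *Cd163* and *Cd36* were high in different macrophage-like cells. The 777 cells were divided by marker lists that held no member into 276 Trem2-type, 275 Mrc1-type, 205 unresolved and 21 monocyte-marked cells. The names stand for the lists, and both naming genes were present in both types. *Mrc1* was at 1219 CPM in Trem2-type and 4853 CPM in Mrc1-type cells, and *Trem2* at 651 and 285 CPM. *Cd163* was at 1219 CPM in Mrc1-type and 4.90 CPM in Trem2-type cells, a log2 ratio of 7.96. *Lyve1* followed it, with 153 and 0.392 CPM and a log2 ratio of 8.61. *Scarb2* was at 200 and 95.8 CPM, a log2 ratio of 1.06. In the opposite direction, *Cd36* was at 59.1 CPM in Mrc1-type and 711 CPM in Trem2-type cells, 12.0-fold lower in the former. *Olr1* was likewise lower, at 15.4 against 49.0 CPM. *Msr1*, at 162 and 293 CPM, and *Scarb1*, at 9.49 and 11.4 CPM, were not called. Of 7 members, 3 were called higher in Mrc1-type cells and 2 lower, compared with 9.24% and 4.4% of 7598 genes. All of these cells come from 1 library, so the values carry no replicate error.

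**Figure D4:**
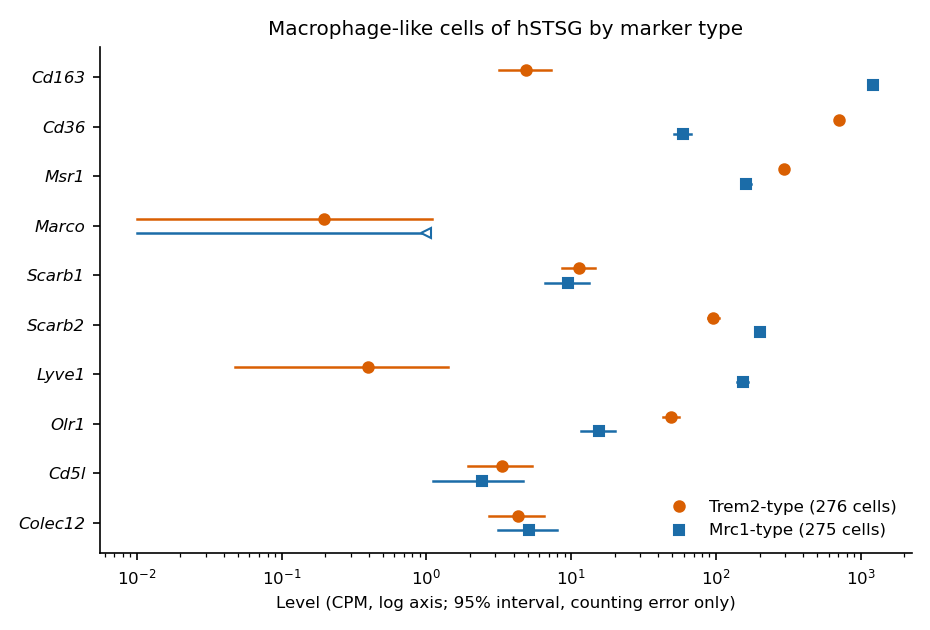
CPM of each gene in Trem2-type and Mrc1-type macrophage-like cells of hSTSG on a log scale, with 95% Poisson intervals (counting error only). *Cd163* stands at 1219 CPM in Mrc1-type and 4.90 in Trem2-type cells, whereas *Cd36* stands at 59.1 and 711 CPM.

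Per cell, the split of *Cd163* from *Cd36* was also seen after thinning. *Cd163* was detected in 45.4% of Mrc1-type and 0.755% of Trem2-type cells, the latter near the 0.413% of T cell-like cells. *Cd36* was detected in 43.8% of Trem2-type cells and *Msr1* in 43.0%. Before thinning, *Cd36* had a UMI in 182 of 276 Trem2-type and 59 of 275 Mrc1-type cells, and *Msr1* in 236 and 163 of them. Those unthinned counts also carry the depth of the types, a median of 14407 and 11493 UMIs. After thinning, over all graft macrophage-like cells, *Cd36* was found in 6.40% of cells with *Cd163* and in 26.6% of those without. *Msr1* was found in 39.5% of cells with *Cd36* and 25.2% of those without. Inside the Mrc1-type, *Lyve1* was detected in 18.6% of *Cd163*-positive and 12.5% of other cells. In the cultures, 95.7% of Co-Mac and 85.3% of VD-Mac macrophage-like cells were Trem2-type, the rest were unresolved, and none passed the Mrc1-type gate. *Trem2* itself went the other way, at 287 CPM in Co-Mac and 737 CPM in VD-Mac macrophage-like cells. The unresolved cells had median depths of 5838 and 3409 UMIs, against 22959 and 17739 in the Trem2-type cells. What lay behind the lower Trem2-type share in VD-Mac was not tested.

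Several members were at higher levels outside the macrophage-like gate in the graft. *Cd36* reached 1710 CPM (1592–1835) in 22 blood endothelial-like cells, with a UMI in 20 of them, and *Scarb1* reached 818 CPM (737–905), with a UMI in 22 of 22. These were the highest levels of both genes among gated groups of at least 20 cells, each separated from the next by its counting interval. However, 22 cells are few, and 3 of them held 50% of the 778 *Cd36* UMIs, with 252 in the highest cell. For *Scarb1*, 5 of them held 50% of the 372 UMIs. *Colec12*, a collectin-type receptor of stromal cells, was at 93.5 CPM (83.7–104) in 137 fibroblast-like cells, with a UMI in 107 of them, against 4.03 CPM in macrophage-like cells. Fibroblast markers summed to 95.6 CPM in those graft macrophage-like cells and endothelial markers to 88.4 CPM, and their part in the low *Colec12* and *Scarb1* levels was not tested. *Olr1* was at 94.3 CPM (79.1–112) in the 487 neutrophil-like cells of the graft, detected in 16.4% of them after thinning. That level was 2.50 on the log2 scale above neutrophil-like cells of Co-Mac, and above the 30.5 CPM of graft macrophage-like cells. *Scarb2*, by contrast, was lower in graft neutrophil-like cells, at 44.7 CPM against 104 in Co-Mac. The median log2 ratio of all genes compared in neutrophil-like cells was -1.34, and *Scarb2* stood at -1.22. *Lyve1*, though a marker of lymphatic vessels, could not be placed there, since 1 cell passed the lymphatic endothelial gate.

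The genes most like each member were taken by Pearson correlation of log2(CPM + 1) across 21 library-by-type groups of at least 30 cells, which left out the blood endothelial-like cells, among 6439 genes. The groups come from 3 libraries and are not independent, so these values are descriptions. *Cd163* ran closest to *Fcna*, a ficolin, and to *Lyve1*, each at 0.95, then *Cd209f* at 0.94. For *Lyve1* the nearest were *Cd209f* at 0.98, the complement gene *C6* at 0.95 and *Cd163*. *Cd36* was nearest to *Sdc3*, *Myof* and *Olfm1*, each at 0.86. The 3 nearest to *Msr1* were *Pf4*, itself a sub-gate marker, at 0.85, *Cmklr1* at 0.83 and *Blnk* at 0.82. *Olr1* lay beside *Slc7a11* at 0.86, *Il1rn* at 0.85 and *Syk* at 0.84, and *Colec12* beside *Dpysl3* at 0.99, *Ackr3* at 0.97 and *Ndufa4l2* at 0.97. *Scarb1* had *Tmem147* at 0.92, with *Bckdk* and *Srsf9* at 0.89. The weakest likeness was that of *Scarb2*, with *Fam213b* at 0.77 and *Rab11fip5* and *Tcf7l2* at 0.76. *Cd163*, *Lyve1* and the genes nearest to either were all highest in Mrc1-type cells of hSTSG. *Colec12* and its nearest genes were all highest in fibroblast-like cells of hSTSG, and *Olr1* and its nearest genes in neutrophil-like cells there. How far these correlations lean on the highest group was not tested.

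Genes acting beside these receptors were read from 5 lists. Of the genes that handle lipid after uptake, 12 reached 10 CPM in the cultures' macrophage-like cells, and 5 were called lower in VD-Mac with none higher; the list's median log2 ratio was -0.69 against -0.07 for all genes. The background for these lists was 3.46% of all genes called higher and 5.14% lower. *Fabp5*, a fatty acid carrier, was at 601 CPM in Co-Mac and 172 CPM in VD-Mac, and *Lpl*, the lipoprotein lipase, at 2402 and 797 CPM. *Rxra*, the usual partner of the vitamin D receptor, was at 18.5 and 6.23 CPM. *Fabp5* and *Lpl* also served as sub-gate markers. Among 10 partners of CD36, *Cd81* was called lower, at 254 and 121 CPM. Of 5 other scavenger receptors, *Mrc1*, the mannose receptor, was called lower at 116 and 44.5 CPM, and of 2 hyaluronan genes *Cd44*, the main hyaluronan receptor of leukocytes, at 294 and 88.5 CPM. Of 12 haem and iron genes, *Slc40a1*, the iron exporter, was called higher at 3.53 and 11.6 CPM.

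In the graft against Co-Mac, 5 of 6 other scavenger receptors were called higher and none lower. *Mrc1* had a log2 ratio of 4.49, *Stab1*, the endocytic receptor stabilin-1, 2.73, and *Cxcl16*, which also binds oxidised lipoprotein, 1.57; a gate marker was among the 5. Of the lipid genes, 7 of 14 were higher and 2 lower: *Apoe* had a log2 ratio of 7.45, *Abca1*, the cholesterol exporter, 5.17 and *Fabp4* 4.81, while *Lpl* was at -2.44 and *Lipa* at -1.66. The haem and iron list gave 5 higher and 2 lower of 12. *Spic*, a transcription factor of iron-recycling macrophages, had a log2 ratio of 5.36 and *Hmox1*, which breaks down haem, 2.72; *Tfrc*, the transferrin receptor, was at 1.89, whereas the biliverdin reductase *Blvrb* was at -1.77 and the haem transporter *Slc48a1* at -1.22. Of 11 partners of CD36, 3 were higher and none lower, with the Src kinases *Fyn* at 2.91 and *Lyn* at 1.14 and the receptor *Tlr6* at 1.38. The hyaluronan list gave 4 higher and 1 lower of 5. *Tnfaip6*, which encodes a secreted hyaluronan-binding protein, had 17.7 CPM in the graft and 1 UMI in Co-Mac, a log2 ratio of 9.50 with a counting interval of 7.00 to 14.81. The hyaluronidase genes *Hyal1* and *Hyal2* were at 3.83 and 1.71, and *Hmmr*, a gene of dividing cells, was at -3.74. With 18.3% and 19.9% of all genes called in this comparison, a share near 1 gene in 5 in either direction is the background for these counts.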

How the data were processed

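The authors aligned the reads with Cell Ranger (3.1.0 in the file header) and deposited unnormalized UMI counts per mouse gene and barcode; Seurat 3.1.1 and mm9 are also named in the submitters' processing notes. The sources differ on the build, so member coordinates and gene spans come from GENCODE M21 (GRCm38), in which 30934 of 31053 gene identifiers were matched, and promoters from RefSeq. Counts were kept, summed and divided by the cells' gene UMIs using Python 3.11.15, numpy 2.4.6, scipy 1.17.1 and pandas 2.3.3. The calls and the intervals of ratios were tested on simulated counts, whereas the gating and thinning steps were not. No count model was fitted.

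A cell's score for a type was the mean over that type's markers of ln(1 + UMIs per 10000), divided by the marker's 90th percentile among cells with a UMI and capped at 1. A cell passed with a score of 0.25 or more, at least 3 markers detected and a margin of 0.1 over the next type. Of the cells, 32.9% of Co-Mac, 35.2% of VD-Mac and 15.5% of hSTSG stayed ungated. The genes and lists were chosen with earlier results of these data known. The markers were set before the tables were opened here, whereas the scoring rule was settled after they had been seen; a version on the 3 highest markers and a comparison of Trem2-type cells alone were added at that point. Named genes were all members and, from the lists, at most 3 of those called per list and direction, by size of ratio; likeness named the 3 nearest genes of at least 50 CPM in some group. Doublets were not called. As stand-ins, 1 alternative removed the deepest cells, 421 in Co-Mac, 623 in VD-Mac and 37 in hSTSG. Another removed macrophage-like cells with a second gate's markers. Hashtag counts in hSTSG could not be tied to mice. Other alternatives changed the filters, scaling, fold, minimum level and gate.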

Additional observations from a re-analysis of the deposited data

Results flagged for a closer look

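The log2 ratio of *Scarb2*, graft over Co-Mac, had opposite signs in 2 gated types, 1.07 in macrophage-like and -1.22 in neutrophil-like cells. The neutrophil-like value lay near the median of all genes compared there, -1.34, and the macrophage-like call was lost under several alternatives; the difference was not tested, as each condition was 1 library. The hSTSG library also held 1195935 hashtag UMIs, outside the gene counts, of which 1195795 were on features named Human and 140 on features named Mouse, against 0 in both cultures.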

How the results depend on the processing

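No paired analysis was possible because each condition was 1 library. With VD3, the single member called higher in macrophage-like cells stayed the count under 17 of 17 alternatives, and the single member called lower under 13 of 17. The lower count was 2 at a 1.5-fold threshold (*Cd36* and *Msr1*), 2 when means over cells replaced sums and 2 over all kept cells, and it was 6 with no minimum CPM. *Cd36* ranged from -3.68, in cells under 5% mitochondrial UMIs, to -1.37, and *Scarb2* from 1.22 to 1.84. *Marco* was at 0.68 instead of -2.75 in macrophage-like cells without a cycling-marker UMI, of which there were 382 in Co-Mac and 226 in VD-Mac.

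For the graft against Co-Mac, the counts of 3 higher and 1 lower were unchanged under 9 of 15 and 13 of 15 alternatives. With no minimum CPM they were 5 and 2, and 0 members were called lower when cells were gated by the number of markers detected. The *Scarb2* call was lost under that gate, under the 3-highest-marker gate, with means over cells and when cells were thinned to 5000 UMIs. In Trem2-type cells alone, *Cd36* and *Olr1* were the members called higher, *Scarb2* was at 0.61 and *Cd163* at 1.98. Set against VD-Mac instead of Co-Mac, *Scarb2* turned to -0.68 and *Cd36* took its place among the 3. The shares of all genes called belong to the main settings and are not given for any alternative, with VD3 or in the graft. Centring on the median gene moved log2 ratios by 0.07 with VD3 and 0.06 in the graft. The cause of these shifts was not tested. In the cultures' macrophage-like cells, which held 40804539 and 27758499 UMIs against 11171520 in the graft, *Marco*, *Cd5l*, *Lyve1* and *Colec12* had from 0 to 218 UMIs, so their ratios have wide counting intervals.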

Other observations

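Among graft cells that passed no gate, 53 had fewer than 1000 UMIs, with a median of 687. *Olr1* had 10 UMIs in them, or 273 CPM, and *Cd36* had 12 UMIs, or 327 CPM. *Cd5l* was found in mature dendritic cell-like cells at 0.526 CPM in Co-Mac and 0.782 CPM in VD-Mac, from 26 and 46 UMIs. The receptor for VD3 itself, *Vdr*, was at 28.4 CPM in Co-Mac, 156 CPM in VD-Mac and 43.2 CPM in hSTSG macrophage-like cells. *Vdr* was singled out after its values were seen.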
